A study of Rattus norvegicus with 9 samples.

Results

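The array features R609 and A044 were followed in left ventricles of rats through acclimation to heat, loss of that state and its return. They are 2 of the 87 rows of the deposited tables. Both were chosen by name because, in an earlier look at these same values, their listed ratios stood higher after acute heat stress in each of 4 states of the rats. Their differences on heat stress are therefore a description here and were not tested. Neither row name is paired with a gene in the tables or the gene annotation used here, so no gene name, function or sequence is given for either.

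Heat acclimation builds up over days to weeks of living in the warm, and in the heart it is accompanied by changes in contractile, metabolic and protective genes. Acute heat stress is a separate challenge: heat-shock factors are activated, and transcription of chaperone genes, whose products keep other proteins folded, is quickly switched on. Deacclimation returns the animal to a temperate room, and reacclimation repeats the warm exposure afterwards. Comparing an unstressed with a stressed heart in each state shows both the resting level of a transcript and how far it moves when the animal is heated.

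The study had 9 groups of rats, with 1 sample per group. Untreated rats were the control. Acclimated rats were kept at 34 °C, for 2 days or for 1 month. Deacclimated rats lived for 1 month at 24 °C after their month of acclimation, and reacclimated rats then went back to 34 °C for 2 days. Heat stress lasted 2 h at 41 °C, and hearts were taken once the rats had recovered for 1 h at 24 °C. It was applied to rats that were not acclimated, 2 d acclimated, 1 mo acclimated or reacclimated, so 4 states have a stressed and an unstressed sample and the deacclimated state has an unstressed sample only. The labels give 3 pools and 6 animals per group, and none of the sources used here gives strain, sex or age. Because no row is named, ventricular marker genes could not be looked up to check the labelled tissue.

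Levels are given as the authors' listed log2 ratio to the control, with the control taken as 0, and differences as differences of these log2 values. A second deposited table of linear intensities is set beside them. It comes from the same samples and is no independent check. Median intensity over the rows ran from 1064 in the 2 d acclimated, heat-stressed group to 4962 in the 2 d acclimated group, so intensities were also put on the log2 scale and centred per sample on the 59 rows above 0 everywhere (scaled intensity). With 1 sample per group there is no replicate error for any value below, neighbouring values cannot be told apart by a spread, and no p-value is given. The number of arrays limits the precision. In whole ventricle, a change in RNA per cell and a change in the make-up of cells cannot be told apart.

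R609 had lower ratios in all unstressed hearts than in any stressed one. Its listed level was 0.14 in the 2 d acclimated, 0.86 in the 1 mo acclimated, -0.48 in the deacclimated and -0.40 in the reacclimated heart, beside the control at 0. The 1 mo acclimated heart was the highest of the 5 unstressed groups, and the deacclimated and reacclimated hearts lay below the control taken as 0. With the control value as listed for R609 they stood above it, by 2.84 and 2.93, and by scaled intensity by 1.76 and 1.91. In the stressed hearts its level was 2.99 without acclimation, 2.94 with 2 d of acclimation, 2.62 with 1 mo of it and 1.68 with reacclimation. Stressed and unstressed groups did not overlap, and the lowest stressed value stood 0.83 above the highest unstressed one. R609 was the highest of all 87 rows in 3 of the stressed groups and ranked 6 in the reacclimated, heat-stressed group, against ranks from 13 to 67 in the treated unstressed groups.

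A044 also had lower ratios in unstressed than in stressed hearts, with its unstressed groups in another order. Its listed level was 0.26 in the 2 d acclimated, -0.16 in the 1 mo acclimated, 0.75 in the deacclimated and 0.15 in the reacclimated heart. The deacclimated heart was the highest and the 1 mo acclimated heart the lowest, where R609 had its lowest and highest values with the control taken as 0. By scaled intensity minus the control, A044 was highest in the reacclimated (0.07) and lowest in the 2 d acclimated heart (-1.43). R609 was then highest in the 2 d acclimated heart (1.93) and lowest in the control. With the control as listed, the control was also the lowest unstressed group of R609. After heat stress the listed level of A044 was 0.89 without acclimation, 1.98 with 2 d of acclimation, 2.18 with 1 mo of it and 2.34 with reacclimation. Stressed and unstressed groups again did not overlap, but by 0.13 only, since the stressed heart of rats that were not acclimated lay close to the deacclimated one. A044 ranked 9 of 87 rows in the stressed, not acclimated group and 3 in each of the other stressed groups. R609 and A044 were the 2 rows (2.30% of 87) with all 4 stressed groups above all 5 unstressed groups, which is close to what they were chosen for.

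**Figure D1:**
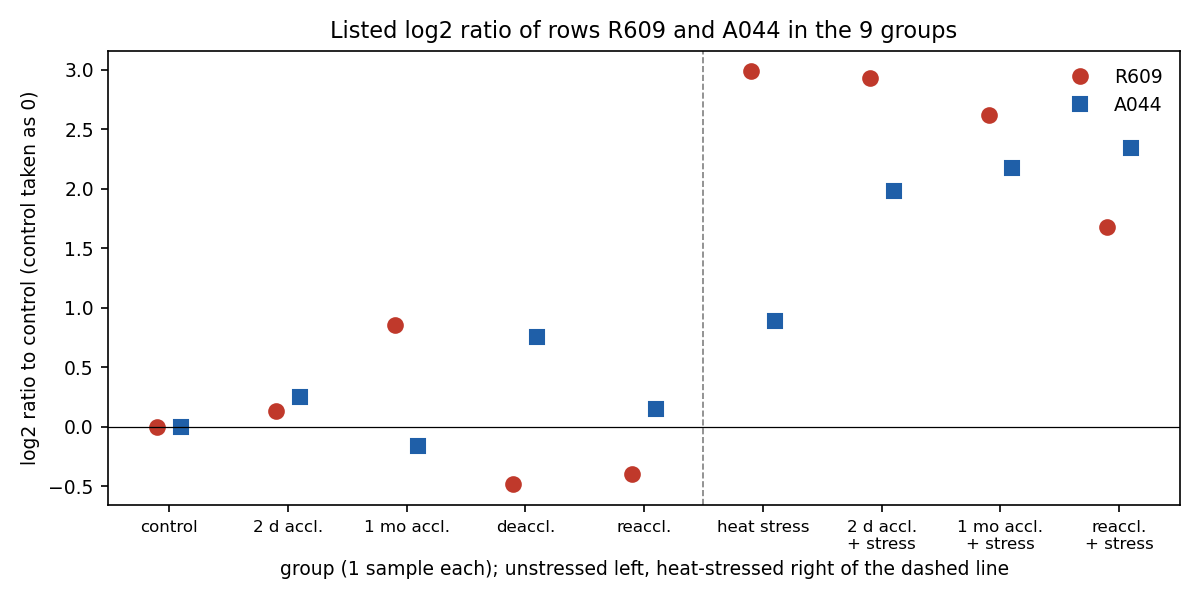
Listed log2 ratio to the control (vertical axis) of R609 (circles) and A044 (squares) in the 9 groups, 1 sample per point, with unstressed groups left and heat-stressed groups right of the dashed line. R609 spans -0.48 to 0.86 in unstressed and 1.68 to 2.99 in stressed hearts, and A044 spans -0.16 to 0.75 and 0.89 to 2.34.

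The difference between the stressed and the unstressed heart of the same state was then taken. For R609 it was 2.99 (7.93-fold) without acclimation, 2.80 in 2 d acclimated, 1.76 (3.40-fold) in 1 mo acclimated and 2.08 (4.23-fold) in reacclimated rats. All 4 values exceeded 2-fold, a log2 difference of 1, in comparisons in which 5.75%, 9.20%, 8.05% and 4.60% of all rows did so, in the same order of states. For A044 the difference was 0.89 (1.85-fold), 1.73 (3.31-fold), 2.33 (5.04-fold) and 2.19 (4.55-fold). It exceeded 2-fold in the 3 states with an earlier stay at 34 °C and stayed under it in rats that were not acclimated. R609 was the 1 row (1.15% of 87) that reached 2-fold in all 4 states, and A044 the 1 row (1.15%) that reached it in exactly 3. Both were chosen from these same differences, so their place in this count was largely built in. For rats that were not acclimated the count takes the control as 0, also in the 9 rows listed away from 0. A further 5 rows reached 2-fold in 2 states and 7 in 1 state, while 73 rows did so in none. By any amount, 5 rows (5.75% of 87), R609 and A044 included, were higher in all 4 states.

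The mean difference over the 4 states was 2.41 ± 0.58 (SD, n = 4 states) for R609 and 1.78 ± 0.65 (SD, n = 4 states) for A044. This spread holds both error and any difference in response between states. The median difference of all rows was below 0 in every state, from -0.39 after 2 d acclimation to -0.06 without acclimation. Next in order of the mean difference stood row 755R at 1.21, row R364 at 0.80 and row R516 at 0.80. Row 755R exceeded 2-fold without acclimation (1.74) and after reacclimation (1.99), but not after 2 d (0.85) or 1 mo acclimation (0.25). Its scaled intensity went the other way without acclimation (-1.32).

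**Figure D2:**
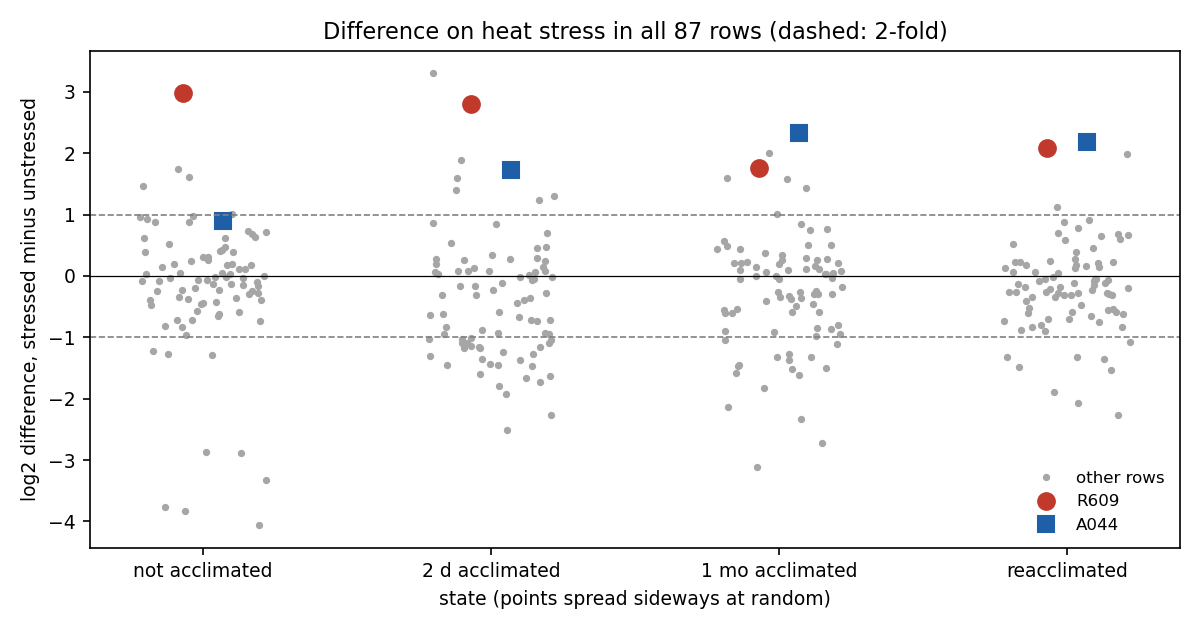
Log2 difference between the stressed and the unstressed sample of each state (vertical axis) for all 87 rows, with R609 as circles, A044 as squares and the other rows as grey points; dashed lines mark 2-fold. R609 lies at 2.99, 2.80, 1.76 and 2.08 and A044 at 0.89, 1.73, 2.33 and 2.19 from left to right, which are ranks 1 to 3 for R609 and 1 to 9 for A044.

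The size of the difference followed a different order of states in each row. In R609 it was smaller after 1 mo acclimation than without acclimation (log2 difference -1.22), and smaller after reacclimation (-0.91). In A044 it was larger in the same comparisons, by 1.45 and 1.30. Both rows therefore moved in opposite directions between these states, with R609 above A044 in rats that were not acclimated (2.99 against 0.89) and below it after 1 mo acclimation (1.76 against 2.33). Such shifts were common among all rows. Between the 1 mo acclimated and the not acclimated state, 16.1% of rows had a response at least 2-fold larger and 23.0% one at least 2-fold smaller, and 11 rows, A044 included, had moved at least as far upward as A044 did. For the reacclimated against the not acclimated state both shares were 16.1%, and 7 rows including A044 had moved up at least as far as it did. Rows that had moved down at least as far as R609, itself included, numbered 15 for 1 mo acclimation and 18 for reacclimation. These comparisons share the control and heat-stressed samples.

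States with an acclimation history could be compared without any control value. From 2 d to 1 mo acclimation the response of R609 was smaller (-1.04), past 2-fold as in 12.6% of rows, and that of A044 larger (0.61). By scaled intensity R609 was again smaller (-0.89), but A044 turned direction (-1.32). From 1 mo acclimation to reacclimation the responses of both rows differed by less, 0.32 for R609 and -0.15 for A044 by listed ratio. At least 35 of the 87 rows differed as much in the same direction in this last comparison, for either row. By scaled intensity these differences were -1.36 for R609, which turned direction, and -1.10 for A044, both past 2-fold.

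The stressed level that each row reached was also compared. For R609 it was nearly the same without acclimation and after 2 d acclimation (a difference of -0.05, or 1.04 by scaled intensity, which turned direction), lower (-0.37) after 1 mo acclimation and lower (-1.30) after reacclimation. The last difference exceeded 2-fold, as it did downward in 16.1% of rows. The smaller difference of R609 after 1 mo acclimation thus came with both a higher unstressed level (0.86) and a slightly lower stressed level (2.62). After reacclimation both levels were low with the control taken as 0 (-0.40 and 1.68). The unstressed one stood above the control by 2.93 with the control as listed and by 1.91 by scaled intensity. Unstressed level and difference share a value, so their order is not independent.

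For A044 the stressed level stood above that of rats that were not acclimated by 1.09 in 2 d acclimated, 1.29 in 1 mo acclimated and 1.45 in reacclimated rats. All 3 exceeded 2-fold, where 11.5%, 13.8% and 34.5% of rows did so upward. The 3 stressed levels after an earlier stay at 34 °C lay within 0.36 of each other by listed ratio, with the reacclimated heart highest. By scaled intensity minus the control they were 2.26, 1.38 and 1.34, with the 2 d acclimated heart highest. Over the unstressed groups of the 4 states A044 spanned 0.41 by listed ratio, less than the 1.45 it spanned over the stressed groups. Its unstressed span was again the smaller by scaled intensity, but was wider than by listed ratio. With the control taken as 0, R609 spanned 1.25 over the unstressed and 1.30 over the stressed groups. These spans of R609 were 4.18 and 1.30 with the control as listed, and 1.93 and 2.27 by scaled intensity. The near-equal spans of R609 thus depend on the control value and on the table.

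**Figure D3:**
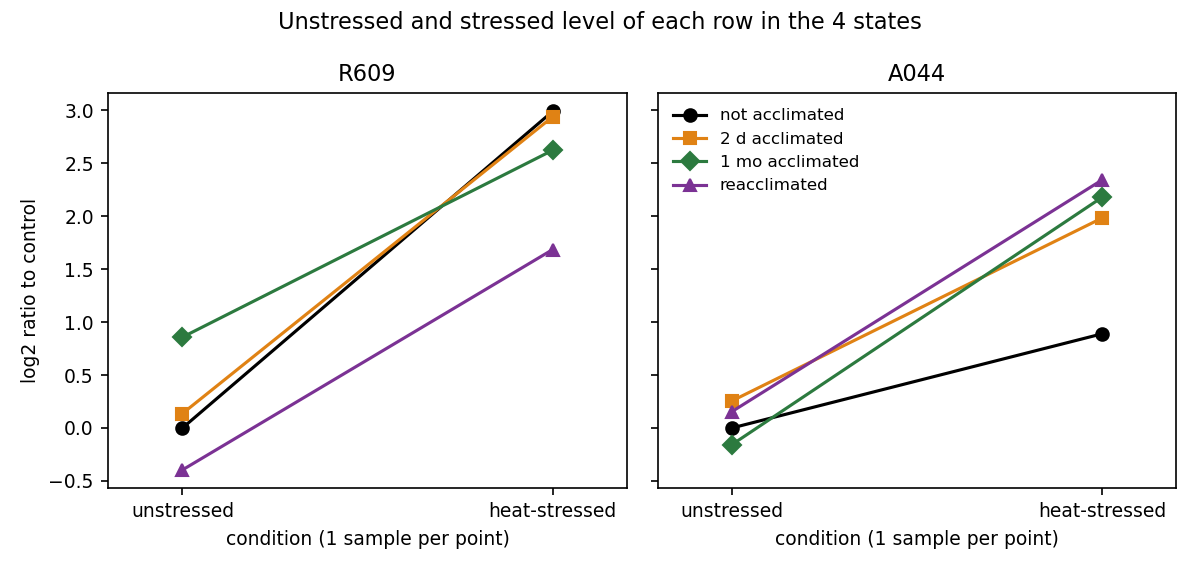
Listed log2 ratio to the control (vertical axis) before and after heat stress, with 1 line per state and 1 sample per point, for R609 (left) and A044 (right). With the control taken as 0, the reacclimated line of R609 lies lowest at both ends (-0.40 and 1.68). In A044 the line of rats that were not acclimated ends lowest (0.89) from a similar start.

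Unstressed groups were then set against each other. From 1 mo acclimation to deacclimation R609 was lower (-1.34), and to reacclimation also lower (-1.25), both past 2-fold. Of all rows, 8.05% were at least 2-fold lower in the first of these comparisons and 9.20% in the second, and in each 5 rows including R609 lay at least as far down. By scaled intensity both turned direction (0.32 and 0.47). Deacclimated and reacclimated hearts differed by 0.09 in R609. In A044 no pair of unstressed groups reached 2-fold by listed ratio, and the widest gap was 0.91, with the deacclimated heart above the 1 mo acclimated one. By scaled intensity the reacclimated heart stood more than 2-fold above the 2 d acclimated one. Against first-time 2 d acclimation, the reacclimated heart was lower both in R609 (-0.53) and in A044 (-0.10) by listed ratio.

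The intensity table gave the same separation for R609 and not for A044. The intensity of R609 was 1282 in the control, 9032 in the 2 d acclimated, 4073 in the 1 mo acclimated, 6902 in the deacclimated and 6439 in the reacclimated heart. In stressed hearts it was 27376 without acclimation, 35528 with 2 d of acclimation, 26384 with 1 mo of it and 20776 with reacclimation. Every stressed intensity was more than 2-fold above every unstressed one before scaling, and R609 was among the 4 brightest rows in each stressed group. By scaled intensity its difference on heat stress was 4.46, 3.57, 2.68 and 1.32 without acclimation, with 2 d of it, with 1 mo of it and with reacclimation, past 2-fold in all. The shares of rows at least 2-fold higher by this measure were 21.1%, 18.2%, 20.7% and 17.3%. They are of the 76, 66, 87 and 81 rows with an intensity above 0 in both samples of the state. R609 was the 1 row (1.69%) of the 59 rows with a value in all groups in which every stressed group lay above every unstressed group by scaled intensity.

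The intensity of A044 was 3318 in the control, 2268 in the 2 d acclimated, 1959 in the 1 mo acclimated, 4834 in the deacclimated and 4659 in the reacclimated heart. In stressed hearts it was 9735 with 2 d of acclimation, 10223 with 1 mo of it and 14448 with reacclimation, but 3110 without acclimation. The stressed heart of rats that were not acclimated was thus no brighter than their unstressed heart, and it lay within the range of the unstressed groups. By scaled intensity the difference of A044 on heat stress was -0.05 without acclimation, 3.69 in 2 d acclimated, 2.37 in 1 mo acclimated and 1.27 in reacclimated rats. The description of A044 as higher on heat stress in all states therefore rests, for rats that were not acclimated, on the listed ratio of 0.89 and was not matched by intensity. This heat-stressed group has empty cells in 11 of the 87 rows of intensities, and its lowest intensity is 1511.

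For R609 the level against the control itself is uncertain. The table also lists ratios for the control, which should be 0 and were so within 0.0001 in 78 rows, but R609 was listed there at -3.32, which equals log2 of 0.1. None of the sources used here says how this value arose. With it subtracted, R609 stood above the control in all 8 treated groups, from 2.84 after deacclimation to 6.31 in the heat-stressed group. Scaled intensity put it above the control in all 8 as well, from 1.43 after 1 mo acclimation to 5.50 in the 2 d acclimated, heat-stressed group. These intensity differences lay on average 1.75 above the listed ratios with the control as 0, and differed on average by -1.57 from those with the listed control subtracted. The values of R609 below the control after deacclimation and reacclimation are thus found only with the control taken as 0, with or without centring of the groups. The difference on heat stress is touched by this in rats that were not acclimated, where it was 6.31 with the listed control subtracted. The other 3 states do not use the control. The control value of A044 was 0 within 0.0001.

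Across the 8 treated groups both tables followed each other for both rows. Pearson's r between the listed ratio and the scaled intensity was 0.911 for R609 and 0.886 for A044, and Spearman's rho was 0.833 and 0.714. Without the 2 groups farthest from the median r was 0.896 and 0.888 over 6 groups. The points share their samples and, within a table, the control, and they fall into stressed and unstressed groups, so these values are a description with no p. Within the unstressed groups the tables differed. The 1 mo acclimated heart was the highest treated unstressed group for R609 by listed ratio (0.86) and the lowest by scaled intensity (1.43 above the control). For A044 the 2 d acclimated heart stood slightly above the control by ratio (0.26) and below it by scaled intensity (-1.43). The differences between unstressed groups given above therefore depend on the table, as do those between acclimated states in response and in stressed level for which a turned direction is given.

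**Figure D4:**
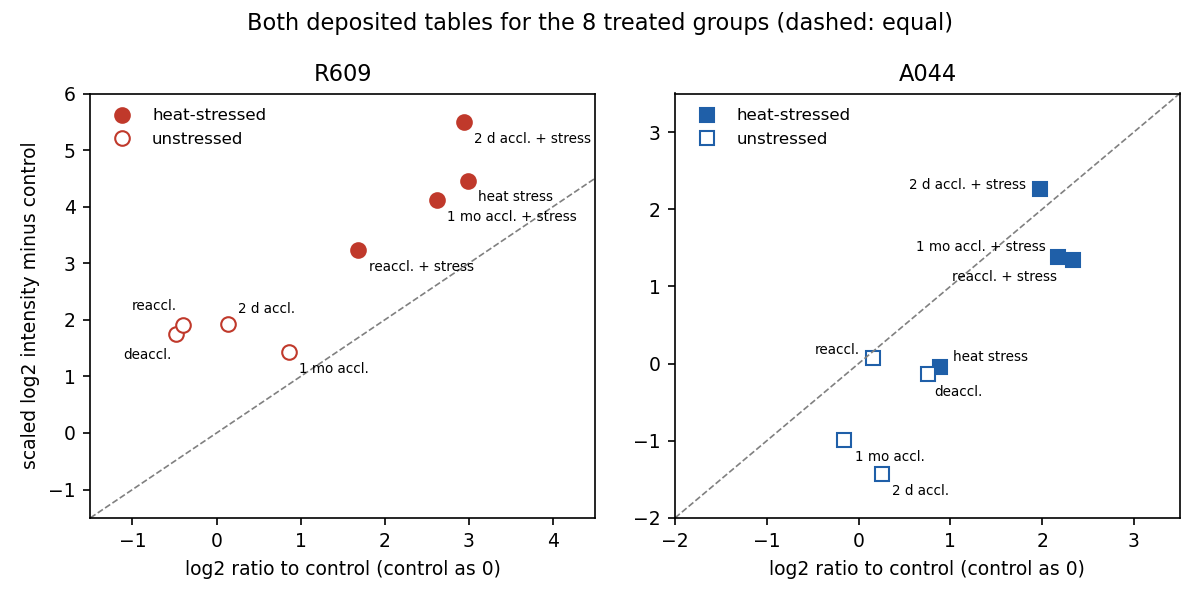
Scaled log2 intensity minus that of the control (vertical axis) against the listed log2 ratio to the control (horizontal axis) for R609 (left) and A044 (right), 1 point per treated group, filled if heat-stressed; the dashed line marks equal values. All 8 points of R609 lie above the line, by 1.75 on average, and 7 of the 8 points of A044 lie below it.

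The rows whose pattern was most like each member were found by Pearson's r of the listed ratio over the 8 treated groups, which does not depend on the control value of a row. All rows share the same samples, and no p is given. Closest to R609 were R364 (r = 0.90), A039 (0.85), S54R (0.71), A044 (0.67) and S72R (0.58). The median r of R609 with the other 86 rows was -0.34, and 26 were above 0. Likeness of pattern did not mean a similar size of response. The difference of R364 on heat stress was 0.31 without acclimation, 1.89 in 2 d acclimated, 0.35 in 1 mo acclimated and 0.67 in reacclimated rats, past 2-fold in 1 state. A039 reached at most 0.76, after 1 mo acclimation, and its difference without acclimation was -0.07. Without the deacclimated and the heat-stressed group, those farthest from the median of R609, r was 0.89 for R364 and 0.75 for A039 but 0.33 for S72R.

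Closest to A044 were 755R (r = 0.70), A075 (0.67), R609 (0.67), R523 (0.61) and R087 (0.60). Its median r with the other 86 rows was -0.20, and 25 were above 0. The difference of R523 on heat stress was -0.72 without acclimation, 1.31 in 2 d acclimated, 1.44 in 1 mo acclimated and 0.52 in reacclimated rats. That of R087 was -1.29, 1.40, 1.60 and -0.29 in the same order. Both passed 2-fold in the first-time acclimated states, as A044 did, but not after reacclimation, where A044 did (2.19). A075 was higher on heat stress in all 4 states, between 0.09 after 1 mo acclimation and 0.87 without acclimation. Without the reacclimated, heat-stressed and the 1 mo acclimated, heat-stressed group, r was 0.92 for 755R and 0.74 for A075 but 0.34 for R087. R609 and A044 were each among the 5 rows most like the other, with a Spearman's rho of 0.55. Both were chosen as higher after heat stress in these same groups, so this likeness was partly built in. Among the stressed groups alone their listed ratios ran in opposite orders.

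**Figure D5:**
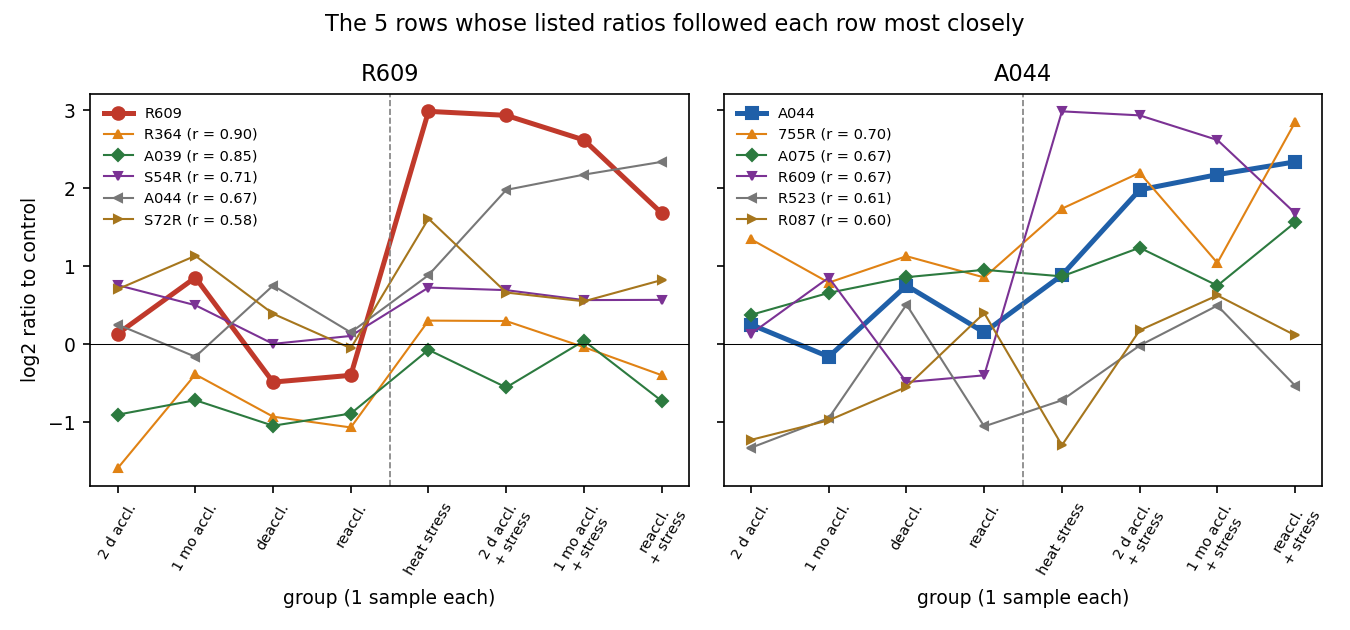
Listed log2 ratio to the control (vertical axis) over the 8 treated groups for R609 (left, thick line) and A044 (right, thick line), each with its 5 most similar rows (thin lines, Pearson's r in the key), 1 sample per point. R364 (r = 0.90) and A039 (0.85) are closest to R609 but span a narrower range and differ from it in the order of some groups, and 755R (0.70) is closest to A044.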

How the data were processed

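Left ventricular RNA of 9 groups of rats was measured on Clontech arrays with a radioactive label, per the labels' protocols. The authors deposited log2 values, described in the design text as normalized ratios of geometric means over the control, and a table of linear intensity values. None of the sources used here says how the deposited log2 ratio and intensity values were normalized or corrected for background. Each group is 1 sample of 3 pools. The members, the rule for similar rows and the comparisons were chosen with earlier results of these data known.

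The control was taken as 0, and differences were taken per row between log2 values. Rows at least 2-fold (log2 of 1) apart by listed ratio were counted over all 87 rows. By scaled intensity they were counted over the 66 to 87 rows with an intensity above 0 in both samples of a state. Intensities above 0 were log2-transformed and centred on each sample's median over 59 rows. Named are both members, the 5 rows most like each by Pearson's r over 8 treated groups, and the 3 rows next in mean difference. None of the 87 row names matched the reference annotation. The steps were tested on simulated data. Values were computed in Python 3.11.15 with pandas 2.3.3 and numpy 2.4.6, and drawn with matplotlib 3.10.9. Alternatives were the listed control, centred groups, scaled intensities, a 3-fold threshold, a filter on dim rows, other measures of likeness and leaving out each state.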

Additional observations from a re-analysis of the deposited data

Results flagged for a closer look

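By scaled intensity the difference of A044 on heat stress was -0.0495 in rats that were not acclimated, while it was above 0 in each of the other 3 states. It stood out because 1 state moved the other way from the rest, with 1 sample per group, and this difference between states was not tested.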

How the results depend on the processing

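No replicate error exists, so a value was read as moved when it shifted by at least the SD of that row's response over the 4 states. No paired analysis was possible because each group has 1 sample and the labels carry no replicate numbers. The mean response of R609, 2.41, was 3.24 with the control as listed and 3.01 by scaled intensity, and leaving out 1 state gave 2.21 to 2.62. That of A044, 1.78, was 1.60 to 2.08 when 1 state was left out, and it moved by less than its SD under the other alternatives. The response of R609 without acclimation was 6.31 with the control as listed. By scaled intensity the responses of R609 were 4.46, 3.57, 2.68 and 1.32 (in the order not acclimated, 2 d acclimated, 1 mo acclimated, reacclimated), and those of A044 were -0.0495 without acclimation, 3.69 with 2 d of it and 1.27 with reacclimation. Centring the groups moved no response of either row by its SD. No response past 2-fold changed sign. Against the control, 10 unstressed and 11 stressed levels moved, and 14 and 13 did not. All that moved did so by scaled intensity or, for R609, with the control as listed (added after seeing the data). The outcome of that last setting was fixed in advance, since it shifts every level of a row by its listed control. This control was -3.32 in R609 and 1.26e-06 in A044. By scaled intensity the only levels kept were the unstressed ones of R609 after 1 mo acclimation and A044 after reacclimation, and A044 in the 2 d acclimated, heat-stressed group. Of the 5 rows most like R609, 3 were kept with Spearman's rho, 3 with centred groups and 3 by scaled intensity. The last count could be no higher, since A039 and S54R lack an intensity above 0 in some treated group. For A044 at least 4 of 5 were kept in the 4 alternatives. By scaled intensity 4 was the most possible, since R523 lacks such a value too. Rows at least 2-fold higher on heat stress numbered 5, 8, 7 and 4. At 3-fold 3 were left without acclimation, 5 after 2 d and 4 after 1 mo acclimation, as the higher threshold implies. By scaled intensity there were 16 of 76 rows without acclimation, 18 of 87 after 1 mo acclimation and 14 of 81 after reacclimation. The cause of the differences between both tables was not tested. Both rows passed the filter that left out the 25% of rows with the lowest intensities.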
